A study of Arabidopsis thaliana with 8 samples.

Results

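The core of the plant cell cycle machinery was examined in whole Arabidopsis thaliana seedlings, as the 52 genes whose symbol in the deposited count tables names an A-, B- or D-type cyclin, a cyclin-dependent kinase (CDK), a KRP/ICK or SIM inhibitor, or an E2F, DP or DEL factor, among 33028 gene names. They comprised 9 A-type cyclins, 9 B-type cyclins, 10 D-type cyclins, 10 CDKs, 6 KRP/ICK inhibitors, SIM, and 7 E2F/DP/DEL factors. The groups were HRE1α OXs, HRE1β OXs and AtRH17 OXs, each labelled as an overexpressor of the gene it is named for, and the wild type (WT), with 2 libraries each. HRE1α and HRE1β are splicing variants of HRE1, a group VII ethylene response factor known from low-oxygen responses, and AtRH17 is a DEAD-box RNA helicase. All groups shared the Columbia (Col-0) background and received no treatment. They grew at 22 °C on MS agar with sucrose under short days (a dark period of 16 h, light for 8 h). The labels give the age as 14 days after germination, whereas the study's methods give a younger age. The HRE1α OXs came from an earlier study, and the promoter that drives the transgenes in these seedlings is not given in the sources used here. Nor do the labels say how many lines or separate cultures stand behind a group, so p-values measure only the spread between these libraries.

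Cyclins bind CDKs and direct them to their substrates. D-type cyclins act mainly in the decision to start DNA synthesis, where they lead to phosphorylation of the retinoblastoma protein and release of E2F/DP factors. A-type cyclins act mainly during DNA synthesis, and B-type cyclins together with the plant-specific CDKB kinases act at mitosis. KRP/ICK and SIM proteins inhibit cyclin-CDK complexes, and a high level of SIM-type inhibitors is known to go with endoreduplication, in which cells copy their DNA without dividing. In a seedling, divisions are concentrated in the root and shoot meristems, young leaves and the stomatal lineage.

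Many mitotic genes carry the letters AACGG in their promoters, the core of the element that MYB3R factors bind. Both strands of the 250 bases before the annotated start were searched for AACGG, for the E2F letters TTTCCCGC, TTTCGCGC, TTTGCCGC and TTTGGCGC, and for the letters GCCGCC of the GCC box, which ethylene response factors bind. GCCGCC can overlap the end of TTTGCCGC. AACGG stood in 19 of the 52 members (36.5%), against 20.6% of 27443 promoters of protein-coding genes. It stood in 5 of 9 B-type cyclins (55.6%), 4 of 9 A-type cyclins (44.4%) and 4 of 6 KRP/ICK genes (66.7%), but in 1 of 10 D-type cyclins. The E2F letters stood in 2 members (3.85%, against 1.41% of all promoters) and the GCC box letters in 1 (1.92%, against 1.87%). Of the members discussed below, 5 are shown from the RefSeq annotation of TAIR10.1, 5′ to 3′ up to the last base before the start, with the matched letters in capitals, which read CCGTT where the MYB3R core lies on the other strand. They are cyclins CYCB1;3 (AT3G11520), CYCB2;2 (AT4G35620) and CYCA1;1 (AT1G44110), which were higher in at least 1 overexpressor, and CYCB1;1 (AT4G37490) and the inhibitor ICK1 (AT2G23430), which were lower in 1.
AT3G11520 (chr3:3627274-3627523, reverse strand): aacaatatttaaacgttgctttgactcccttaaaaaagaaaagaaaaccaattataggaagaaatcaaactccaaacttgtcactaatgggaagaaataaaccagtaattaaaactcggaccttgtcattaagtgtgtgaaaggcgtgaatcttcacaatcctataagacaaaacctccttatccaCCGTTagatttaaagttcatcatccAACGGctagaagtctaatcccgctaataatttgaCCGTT
AT4G35620 (chr4:16901346-16901595, forward strand): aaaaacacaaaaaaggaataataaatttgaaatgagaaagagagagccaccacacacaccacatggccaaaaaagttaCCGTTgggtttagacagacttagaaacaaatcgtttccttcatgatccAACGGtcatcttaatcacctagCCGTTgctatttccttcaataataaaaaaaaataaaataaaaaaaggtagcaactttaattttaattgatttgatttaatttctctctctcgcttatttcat
AT4G37490 (chr4:17624309-17624558, reverse strand): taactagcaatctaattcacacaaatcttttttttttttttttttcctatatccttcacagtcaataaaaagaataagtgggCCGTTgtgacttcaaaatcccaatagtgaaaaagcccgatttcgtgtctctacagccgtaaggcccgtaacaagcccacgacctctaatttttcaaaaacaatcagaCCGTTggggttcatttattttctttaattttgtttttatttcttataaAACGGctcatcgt
AT1G44110 (chr1:16777353-16777602, reverse strand): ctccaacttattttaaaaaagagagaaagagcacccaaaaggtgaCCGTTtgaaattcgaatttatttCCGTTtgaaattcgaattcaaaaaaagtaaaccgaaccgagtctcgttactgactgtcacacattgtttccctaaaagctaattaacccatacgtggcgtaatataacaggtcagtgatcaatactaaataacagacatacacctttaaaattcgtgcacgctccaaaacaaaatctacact
AT2G23430 (chr2:9978091-9978340, reverse strand): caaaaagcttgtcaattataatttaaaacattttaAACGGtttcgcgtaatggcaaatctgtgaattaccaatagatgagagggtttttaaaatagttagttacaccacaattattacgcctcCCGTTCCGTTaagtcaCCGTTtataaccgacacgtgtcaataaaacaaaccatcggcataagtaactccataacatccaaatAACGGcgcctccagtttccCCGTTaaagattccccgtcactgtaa
The 3 B-type promoters hold 3 matches of AACGG each, whether the gene was higher or lower in an overexpressor. ICK1 holds 6, the most of any member. All 5 promoters shown hold the letters, but several members that were also higher in an overexpressor hold no match. These are the B-type cyclins AT1G76310 and AT2G26760, the A-type cyclin AT1G47210, the D-type cyclins AT1G70210 and AT3G50070, and the 3 CDKB kinases that rose. The others that rose, AT1G20610, AT5G43080 and AT4G34160, hold 3, 2 and 1. Whether matches and changes go together was not tested. A match is a description of the letters and not a measured binding site.

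The libraries were made with QuantSeq, which reads 1 fragment near the 3′ end of each transcript, so that levels can be compared between genes without a length term. Levels are in CPM, the counts per 1e+06 counts of a library after scaling with edgeR's TMM factors. Totals ranged from 25657217 to 30606058 counts, and 3 counts correspond to between 0.0972 and 0.122 CPM. HRE1 was counted 4424 and 5397 times in HRE1α OXs, 916 and 1057 times in HRE1β-labelled OXs, and 1233 and 878 times in AtRH17 OXs, against 1401 and 1115 times in WT. Its level was thus 4.14-fold higher in HRE1α OXs and 1.29-fold lower in HRE1β-labelled OXs (adjusted p = 2.1e-10 and 0.026, edgeR's quasi-likelihood test). Since this count does not show the overexpression that the label names, those libraries are called HRE1β-labelled OXs throughout, after their label. The study itself reported HRE1β above WT in its HRE1β OXs, by quantitative RT-PCR with primers for that variant. Its construct was built from the HRE1β reading frame, and whether transcripts of the transgene enter the count used here was not tested. The count of AtRH17 was not analysed here. The seed storage and oil-body genes CRA1, CRU3 and OLEO1 and 5 other seed genes summed to 92.7 and 27.0 CPM in HRE1β-labelled replicates 1 and 2 and to less than 1 CPM in every other library.

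Of the 52 members, 48 had enough counts to be tested, among 22602 genes. The 4 others were CYCA3;3, with no count in any library, which allows up to 3 counts in each for counting error, and 1 further A-type, 1 B-type and 1 D-type cyclin (AT5G25380, AT1G16330 and AT5G02110), with at most 9 counts in any library. The members together took between 0.0405% and 0.0444% of the counts. On the level scale, the highest member of each class over the 8 libraries was CDKC2 (44.8 CPM) for the CDKs, CYCD3;3 (AT3G50070, 33.0 CPM) for the D-type cyclins, SIM (32.5 CPM), CYCA3;2 (AT1G47210, 18.8 CPM), ICK1 (13.4 CPM), DPB (9.0 CPM) and, for the B-type cyclins, AT4G37490 (8.04 CPM). D-type cyclins summed to 124 CPM in AtRH17 OXs, 113 CPM in HRE1β-labelled OXs and 115 CPM in HRE1α OXs, against 107 CPM in WT, and B-type cyclins to 35.3, 31.4 and 25.6 CPM, against 25.9 CPM. In a bulk seedling library, more cells of a type and more RNA per cell cannot be told apart.

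A gene was called when its Benjamini-Hochberg adjusted p over all genes tested was under 0.05 in edgeR's quasi-likelihood test, with no limit on the fold change. In HRE1α OXs, 2 of 48 members were called against WT, the D-type cyclin CYCD1;1 (AT1G70210) higher and the kinase CDKE;1 (AT5G63610) lower, or 4.17% beside 3.36% of all genes tested (1.57% higher and 1.8% lower). In HRE1β-labelled OXs, 14 members were called (29.2%, beside 22.9% of all genes). In AtRH17 OXs, 14 members were also called (29.2%, beside 30.8% of all genes). The number called was thus near that of other genes, and the direction was uneven. In HRE1β-labelled OXs, 11 members rose and 3 fell (22.9% and 6.25%), whereas 11.2% of all genes rose and 11.6% fell. In AtRH17 OXs, 11 rose and 3 fell (22.9% and 6.25%), whereas 15.3% of all genes rose and 15.5% fell. The median log2 fold change over the tested members was 0.20 in HRE1β-labelled OXs, 0.08 in AtRH17 OXs and -0.02 in HRE1α OXs, and over all genes it lay between -0.01 and 0.0001.

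**Figure D1:**
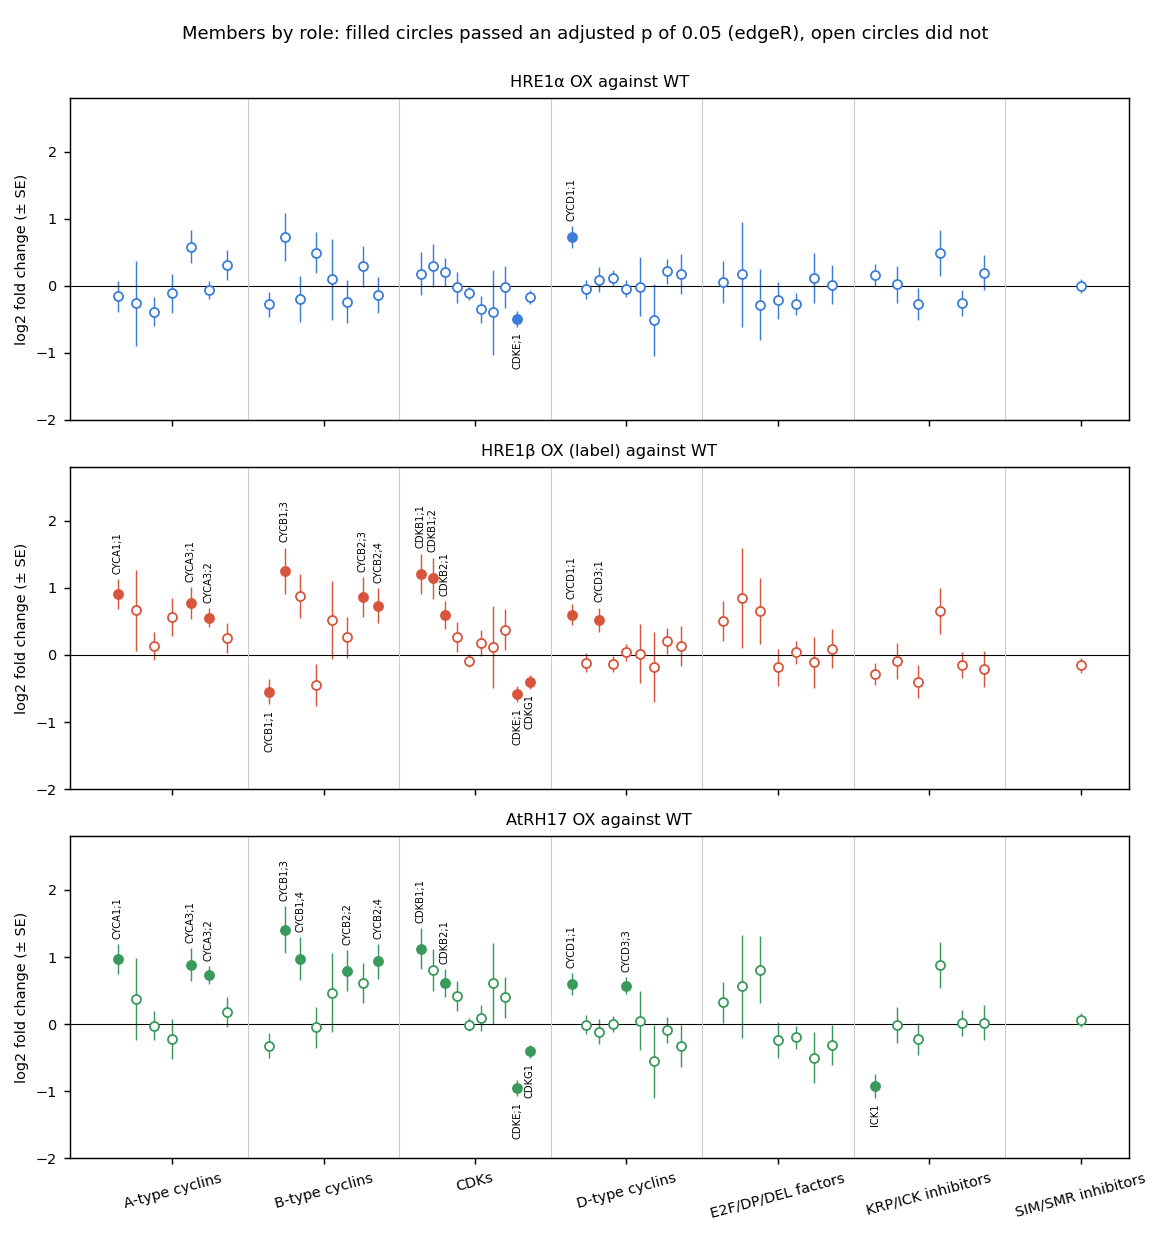
Log2 fold change against WT (± SE, vertical axis) of each of the 48 tested members, grouped by role along the horizontal axis, for HRE1α OX, HRE1β OX (as labelled) and AtRH17 OX from top to bottom. Filled circles passed an adjusted p of 0.05 in edgeR's test (2, 14 and 14 members) and are named, and no E2F/DP/DEL factor and not SIM is among them.

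These counts depended on single libraries. Without HRE1β-labelled replicate 1, 3 of the 14 members called in that comparison passed, 1 higher and 2 lower, and none of the A- or B-type cyclins was among them. This library is also the one with the higher seed gene sum, and whether that sum and the result are linked was not tested. Without WT replicate 2, 8 members passed for HRE1β-labelled OXs and 9 for AtRH17 OXs, and without AtRH17 OX replicate 1 the count for AtRH17 OXs was 9. In HRE1α OXs, 0 members passed without replicate 1 and 1 without replicate 2. With 1 library left in a group, the test takes it to vary like the other groups.

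**Figure D2:**
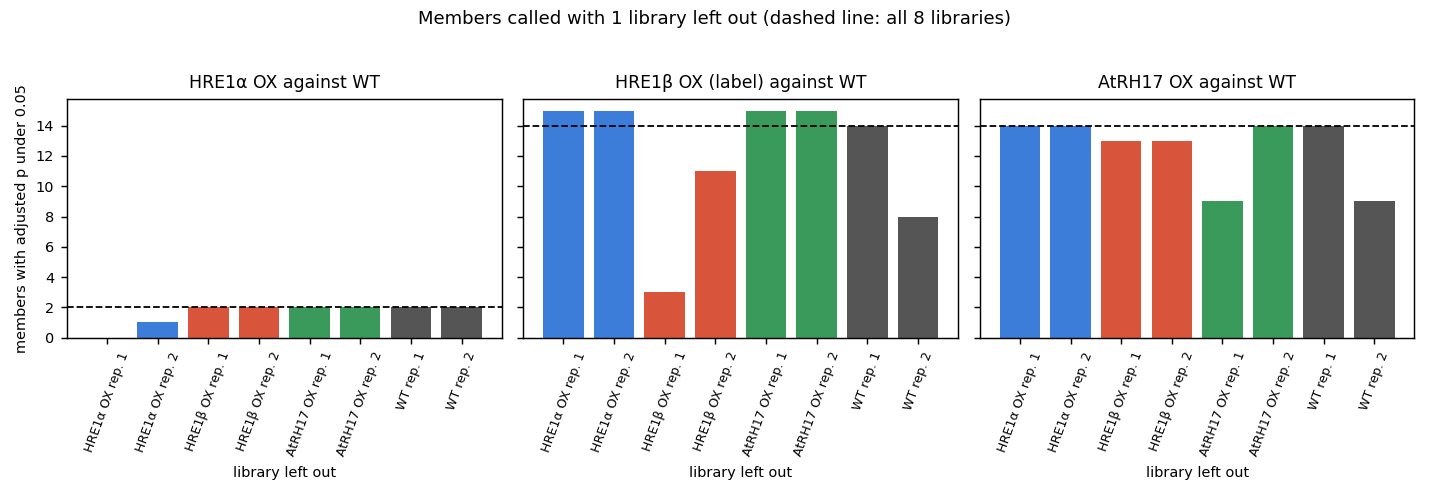
Members with an adjusted p under 0.05 against WT (vertical axis, count of 48 tested) when the library named on the horizontal axis is left out, for each overexpressor, with the dashed line at the count from all 8 libraries. The lowest bars are 0 for HRE1α OX, 3 for HRE1β OX (as labelled) and 9 for AtRH17 OX.

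Of the 7 tested A-type cyclins, 3 rose in HRE1β-labelled OXs and in AtRH17 OXs, and 0 were called in HRE1α OXs, where 1 had an unadjusted p under 0.05. The most abundant of them, AT1G47210, a cyclin of the group that acts around the start of DNA synthesis, stood at 23.5 and 20.06 CPM in HRE1β-labelled OXs, 22.2 and 27.0 CPM in AtRH17 OXs and 14.2 and 14.1 CPM in HRE1α OXs, against 15.7 and 13.8 CPM in WT. Its log2 fold change against WT was 0.56 ± 0.136 (SE, adjusted p = 0.0026, edgeR) in HRE1β-labelled OXs and 0.73 ± 0.136 (adjusted p = 8.9e-05) in AtRH17 OXs. Both groups lay wholly above WT and HRE1α OXs. CYCA1;1 showed 8.1 and 6.81 CPM in HRE1β-labelled OXs, 8.81 and 6.71 CPM in AtRH17 OXs and 3.74 and 3.35 CPM in HRE1α OXs, against 4.02 and 3.9 CPM in WT. The level was 1.88-fold and 1.96-fold that of WT in HRE1β-labelled OXs and in AtRH17 OXs (adjusted p = 0.0024 and 0.000915, edgeR). The third, CYCA3;1, had 5.88 and 5.32 CPM in HRE1β-labelled OXs, 6.59 and 5.49 CPM in AtRH17 OXs and 4.89 and 4.9 CPM in HRE1α OXs, against 3.87 and 2.67 CPM in WT. All 6 overexpressor libraries lay above WT for this gene, and the call was made in HRE1β-labelled OXs and in AtRH17 OXs (adjusted p = 0.018 and 0.0048, edgeR). Without HRE1β-labelled replicate 1, none of the 3 passed in that group (adjusted p of 0.076, 0.052 and 0.12, in the order given). The call of the third was also lost there without WT replicate 2 (0.19), and in AtRH17 OXs without their replicate 1 or WT replicate 2 (adjusted p of up to 0.083), while the 2 others kept their calls in AtRH17 OXs whichever library was left out. The 4 other tested A-type cyclins gave log2 fold changes against WT between -0.39 and 0.67 and were not called. The class summed to 1.44 and 1.45 times its WT level in HRE1β-labelled OXs and in AtRH17 OXs, and to 0.99 times in HRE1α OXs.

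B-type cyclins moved in both directions. Of the tested members, CYCB1;3 showed the largest fold change in both HRE1β-labelled OXs and AtRH17 OXs. Its level was 3.92 and 2.33 CPM in HRE1β-labelled OXs, 3.21 and 3.74 CPM in AtRH17 OXs and 2.37 and 1.95 CPM in HRE1α OXs, against 1.03 and 1.57 CPM in WT. The log2 fold change was 1.25 ± 0.347 (SE, adjusted p = 0.0078, edgeR) and 1.41 ± 0.346 (adjusted p = 0.0021) in HRE1β-labelled OXs and in AtRH17 OXs. In HRE1α OXs, both libraries were also above WT, with a log2 fold change of 0.72 that did not pass (adjusted p = 0.35). The call in AtRH17 OXs was kept whichever library was left out, and that in HRE1β-labelled OXs was lost without their replicate 1 or WT replicate 1 (adjusted p of up to 0.21). CYCB2;4 (AT1G76310) stood at 7.65 and 5.19 CPM in HRE1β-labelled OXs, 7.93 and 6.76 CPM in AtRH17 OXs and 4.24 and 2.74 CPM in HRE1α OXs, against 3.06 and 4.62 CPM in WT. The groups did not overlap with WT, and the level was 1.67-fold and 1.91-fold that of WT (adjusted p = 0.037 and 0.0055, edgeR). Leaving out WT replicate 1 or replicate 1 of the overexpressor ended both calls (adjusted p of up to 0.42 and 0.070). In HRE1β-labelled OXs it was also lost with DESeq2 (0.059) and when only the 2 groups compared were fitted (0.057).

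Of the other B-type cyclins, 3 rose in 1 group against WT. CYCB1;4 (AT2G26760) had 6.45 and 3.99 CPM in AtRH17 OXs, against 3.45 and 1.88 CPM in WT (adjusted p = 0.023, edgeR), and 5.51 and 4.28 CPM in HRE1β-labelled OXs (adjusted p = 0.053). CYCB2;2 rose 1.74-fold in AtRH17 OXs, with 4.61 and 3.58 CPM, against 1.81 and 2.91 CPM in WT (adjusted p = 0.048, edgeR). CYCB2;3 (AT1G20610) rose 1.82-fold in HRE1β-labelled OXs, with 5.06 and 3.4 CPM, against 2.6 and 2.05 CPM in WT (adjusted p = 0.032, edgeR), and had 4.12 and 2.93 CPM in AtRH17 OXs (adjusted p = 0.13). No difference between AtRH17 OXs and HRE1β-labelled OXs passed the direct test for these 3 genes. The call of the first was lost without AtRH17 OX replicate 1 or WT replicate 2 (adjusted p of up to 0.31), and that of the third without HRE1β-labelled replicate 1 or WT replicate 2 (up to 0.37), with quantile normalization (0.054) and when only the 2 groups compared were fitted (0.051). The call of the second was lost with each library left out except WT replicate 2 (adjusted p of up to 0.31), with DESeq2 (0.068), with quantile normalization (0.050) and when only the 2 groups compared were fitted (0.066).

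CYCB1;1, widely used as a marker of dividing cells, went the other way. Its level was 6.32 and 6.97 CPM in HRE1β-labelled OXs, 8.88 and 6.63 CPM in AtRH17 OXs and 8.29 and 7.75 CPM in HRE1α OXs, against 8.82 and 10.6 CPM in WT. It fell in HRE1β-labelled OXs (log2 fold change -0.55 ± 0.188, SE, adjusted p = 0.033, edgeR), where AT3G11520 rose. The call was lost with DESeq2 and with upper-quartile factors (adjusted p = 0.054 each), and without either HRE1β-labelled library or WT replicate 2 (up to 0.22). CYCB1;5 (AT1G34460) was called in no comparison with WT. Its level was 2.4 and 1.82 CPM in HRE1β-labelled OXs, against 4.12 and 3.96 CPM in HRE1α OXs, and it was lower there (log2 difference -0.94 ± 0.31, SE, adjusted p = 0.033, edgeR). Its transcript end is up to 98.3% identical over 300 bases to a locus elsewhere on chromosome 1, and reads with several alignments were counted, so its counts are uncertain. This difference was lost without any 1 of the 4 libraries compared (adjusted p of up to 0.26).

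**Figure D3:**
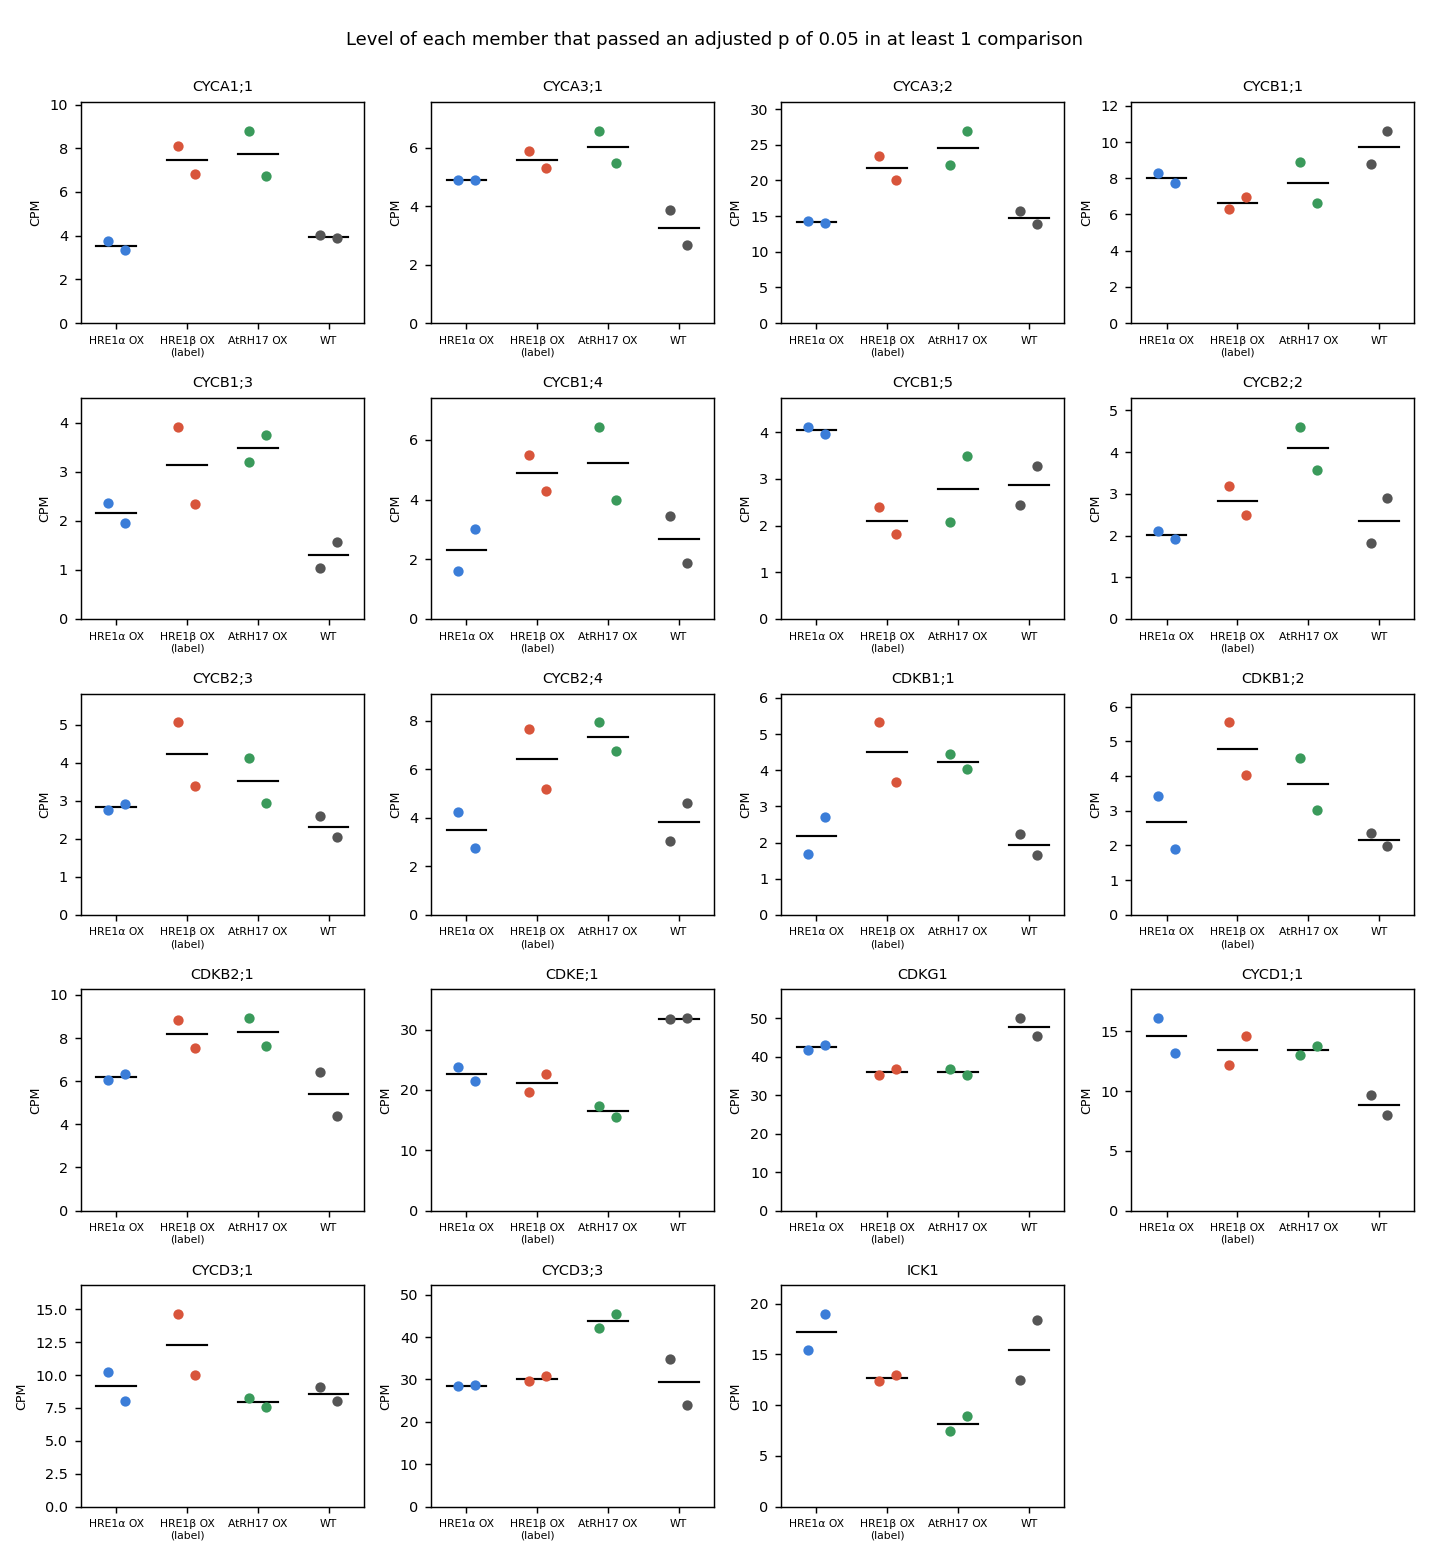
Level in CPM (vertical axes, from 0, each panel on its own scale) of the 19 members called in at least 1 of the 6 comparisons, with 1 point per library and a bar at the mean of the 2 libraries of each group. In the panel of the Mediator kinase all 6 overexpressor libraries lie lower (15.5 to 23.9 CPM) than WT (31.8 and 31.9 CPM).

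Among the CDKs, 3 mitotic CDKB kinases rose and 2 CDKs with roles in transcription and splicing fell. CDKB1;1 (AT3G54180) stood at 5.32 and 3.66 CPM in HRE1β-labelled OXs, 4.44 and 4.03 CPM in AtRH17 OXs and 1.68 and 2.7 CPM in HRE1α OXs, against 2.24 and 1.64 CPM in WT. It rose 2.31-fold in HRE1β-labelled OXs (adjusted p = 0.0036, edgeR) and 2.18-fold in AtRH17 OXs (adjusted p = 0.0051). CDKB1;2 had 5.54 and 4.02 CPM in HRE1β-labelled OXs (2.2-fold, adjusted p = 0.0066, edgeR) and 4.51 and 3.01 CPM in AtRH17 OXs (1.74-fold, adjusted p = 0.051), against 2.35 and 1.98 CPM in WT. CDKB2;1 had 8.83 and 7.52 CPM in HRE1β-labelled OXs and 8.91 and 7.61 CPM in AtRH17 OXs, against 6.43 and 4.38 CPM in WT, and rose 1.51-fold and 1.53-fold (adjusted p = 0.034 and 0.023, edgeR). With DESeq2 it missed the threshold in HRE1β-labelled OXs (adjusted p = 0.053), and likewise when only the 2 groups compared were fitted (0.064). Without HRE1β-labelled replicate 1, none of the 3 calls in that group was made (adjusted p = 0.10, 0.12 and 0.25, in the order given), and the last was also lost without HRE1β-labelled replicate 2 (0.050) or WT replicate 2 (0.33). In AtRH17 OXs, the first was lost without WT replicate 2 (adjusted p = 0.054) and the last without WT replicate 2 or AtRH17 OX replicate 1 (up to 0.27). The fourth CDKB kinase gave log2 fold changes of 0.27 and 0.42 and was not called. The 4 CDKB genes summed to 25.9 and 21.0 CPM in HRE1β-labelled OXs, 24.3 and 21.6 CPM in AtRH17 OXs and 16.6 and 15.4 CPM in HRE1α OXs, against 17.1 and 11.9 CPM in WT. The 3 CDKB genes that were called each overlap a gene on the other strand at their 3′ end, and none of those neighbours was called against WT. The neighbour of the third, F14G6.13, had log2 fold changes of 1.06 in HRE1β-labelled OXs and 1.13 in AtRH17 OXs (adjusted p = 0.19 and 0.14, edgeR) at a mean of 0.981 CPM, and that of the second, T6A23.17, had 0.42 and 0.32 (adjusted p = 0.12 and 0.23). The part of these neighbours in the counts of the kinases was not tested.

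CDKE;1, the kinase of the Mediator complex in plants, and the D-type cyclin AT1G70210 were the 2 members called in all 3 comparisons with WT. The kinase had 23.9 and 21.4 CPM in HRE1α OXs, 19.7 and 22.6 CPM in HRE1β-labelled OXs and 17.4 and 15.5 CPM in AtRH17 OXs, against 31.8 and 31.9 CPM in WT. All 6 overexpressor libraries lay below both WT libraries, and the 2 AtRH17 OX libraries were the lowest. The log2 fold change was -0.49 ± 0.121 in HRE1α OXs (SE, adjusted p = 0.015, edgeR), -0.59 ± 0.121 in HRE1β-labelled OXs (adjusted p = 0.00045) and -0.95 ± 0.123 in AtRH17 OXs (adjusted p = 3.9e-07). The calls in HRE1β-labelled OXs and in AtRH17 OXs were kept whichever library was left out, and that in HRE1α OXs was lost without either of their libraries (adjusted p of up to 0.28). The gene lies on chromosome 5 from 25463362 to 25465922 on the reverse strand and overlaps no annotated gene.

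CDKG1, known for a part in pre-mRNA splicing, had 35.1 and 36.8 CPM in HRE1β-labelled OXs, 36.7 and 35.3 CPM in AtRH17 OXs and 41.7 and 43.1 CPM in HRE1α OXs, against 49.9 and 45.4 CPM in WT. It fell 1.32-fold in each of the first 2 groups (adjusted p = 0.0028 and 0.0022, edgeR). A gene on the other strand, AT5G63375, shares 448 bases with it and fell as well, with log2 fold changes of -0.86 and -0.91 (adjusted p = 6.3e-05 and 2.3e-05, edgeR). The use of strand in counting is not given in the sources used here, and the fall of the 2 genes cannot be told apart without it. CDKC2, a kinase of the RNA polymerase II tail, was counted nearly as often as MXK3.20, which shares 971 bases with it on the other strand. The ratio of the 2 counts lay between 0.998 and 1.01 in the 8 libraries, so the counts of these 2 genes cannot be told apart. CDKC2 was called in no comparison, and neither were the other CDKC kinase and the 2 CDKD kinases among the members, of a family that activates other CDKs.

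Most D-type cyclins were not called, and the 3 that were each had a pattern of their own. CYCD1;1 stood at 16.1 and 13.2 CPM in HRE1α OXs, 12.2 and 14.6 CPM in HRE1β-labelled OXs and 13.0 and 13.8 CPM in AtRH17 OXs, against 9.7 and 8.0 CPM in WT. All 6 overexpressor libraries were above WT, 1.65-fold, 1.52-fold and 1.51-fold in the mean (adjusted p = 0.0057, 0.0057 and 0.0047, edgeR). The call in HRE1α OXs was lost without their replicate 1 (adjusted p = 0.21), that in HRE1β-labelled OXs without their replicate 2 or WT replicate 2 (up to 0.11), and that in AtRH17 OXs without WT replicate 2 (0.061). CYCD3;3, a cyclin of the cytokinin-responsive CYCD3 group, had 42.2 and 45.4 CPM in AtRH17 OXs, 29.5 and 30.9 CPM in HRE1β-labelled OXs and 28.5 and 28.6 CPM in HRE1α OXs, against 34.8 and 24.1 CPM in WT. It rose in AtRH17 OXs (log2 fold change 0.57 ± 0.126, SE, adjusted p = 0.00076, edgeR), where it was also higher than in HRE1β-labelled OXs (0.54 ± 0.125, adjusted p = 0.0042) and in HRE1α OXs (0.62 ± 0.126, adjusted p = 0.00051). Of these 3 calls, that against HRE1β-labelled OXs was lost without their replicate 1 or AtRH17 OX replicate 2 (up to 0.080).

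CYCD3;1 (AT4G34160) had 14.6 and 9.98 CPM in HRE1β-labelled OXs, 8.28 and 7.57 CPM in AtRH17 OXs and 10.2 and 8.04 CPM in HRE1α OXs, against 9.06 and 8.07 CPM in WT. It was higher in HRE1β-labelled OXs than in WT (adjusted p = 0.04, edgeR), and lower in AtRH17 OXs than in HRE1β-labelled OXs (log2 difference -0.63 ± 0.187, SE, adjusted p = 0.021). The high value came from HRE1β-labelled replicate 1, without which neither call was made (adjusted p = 0.60 and 0.45). The first call was also lost without WT replicate 2 (0.16), with DESeq2 (0.072) and when only the 2 groups compared were fitted (0.061), and the second without either AtRH17 OX library (up to 0.18). The 6 other tested D-type cyclins gave log2 fold changes against WT between -0.56 and 0.22. The counts of CYCD6;1, known from a formative division of the root ground tissue, are uncertain, since it shares 847 bases with F4C21.19 on the other strand, whose mean level was 38.3 CPM against 2.87 CPM for the cyclin.

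Of the inhibitors, ICK1 changed and the others were not called. ICK1, also known as KRP1, stood at 7.4 and 8.95 CPM in AtRH17 OXs, 12.4 and 12.9 CPM in HRE1β-labelled OXs and 15.5 and 19.0 CPM in HRE1α OXs, against 12.5 and 18.4 CPM in WT. It was lower in AtRH17 OXs than in each other group, by 0.92 ± 0.173 on the log2 scale against WT (SE, adjusted p = 0.00012, edgeR), 1.08 ± 0.173 against HRE1α OXs (adjusted p = 2.3e-05) and 0.64 ± 0.175 against HRE1β-labelled OXs (adjusted p = 0.013). The 2 AtRH17 OX libraries were the lowest of the 8, and the calls against WT and HRE1α OXs were kept whichever library was left out, while that against HRE1β-labelled OXs was lost without either of those libraries or AtRH17 OX replicate 1 (adjusted p of up to 0.16). ICK6 pointed the other way, with 2.82 and 2.77 CPM in AtRH17 OXs, against 1.85 and 1.2 CPM in WT, and did not pass (adjusted p = 0.051). SIM, which restrains division in trichomes, lay between 29.2 and 35.9 CPM in the 8 libraries and was not called. KRP2, ICK3, ICK5 and KRP6 gave log2 fold changes against WT between -0.40 and 0.19.

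No E2F, DP or DEL factor was called. Their log2 fold changes against WT lay between -0.50 and 0.85, the extremes coming from E2F1 and DEL2, which had fewer than 4 CPM in every library. The most abundant, DPB, had 9.46 and 10.3 CPM in HRE1β-labelled OXs, 8.56 and 8.3 CPM in AtRH17 OXs and 7.68 and 8.29 CPM in HRE1α OXs, against 9.06 and 10.2 CPM in WT. E2F3 and DEL1 overlap genes on the other strand, and the neighbour of DEL1, ALDH10A9, was counted at 39.3 CPM, against 3.0 CPM for DEL1. In all, 19 members overlap another annotated gene, 15 of them within their last 300 bases, where the reads of this method fall. Stretches of at least 90% identity link the 2 CDKB1 genes, the 2 CDKB2 genes and AT1G76310 with AT1G20610, so reads could be counted for both genes of a pair.

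HRE1β-labelled OXs and AtRH17 OXs were set against the same WT libraries, so that their values are not independent. Past 2-fold were AT3G11520 and both CDKB1 kinases in HRE1β-labelled OXs (3.24% of all genes rose past 2-fold) and AT3G11520 and AT3G54180 in AtRH17 OXs (4.27% of all genes).

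The overexpressors were also compared with each other. Between HRE1β-labelled OXs and HRE1α OXs, 6 members differed (12.5%, beside 16.7% of all genes). The A-type cyclins AT1G44110 and AT1G47210, the B-type cyclins AT1G76310 and AT2G26760 and the kinase AT3G54180 were higher in HRE1β-labelled OXs, and AT1G34460 was lower. Of these, AT1G44110 alone passed without HRE1β-labelled replicate 1. Between AtRH17 OXs and HRE1α OXs, 9 members differed (18.8%, beside 25.8% of all genes). The same 5 genes, AT4G35620 and AT3G50070 were higher in AtRH17 OXs, and ICK1 and AT5G63610 were lower. Without HRE1α OX replicate 1, 5 of these 9 passed. AtRH17 OXs and HRE1β-labelled OXs differed in 4 members (8.33%, beside 13.9% of all genes), with AT3G50070 higher in AtRH17 OXs and ICK1, AT4G34160 and AT5G63610 lower. These 4 rest on 2 libraries a side, since 0 were called without HRE1β-labelled replicate 1 and 2 without replicate 2, and 1 without either AtRH17 OX library. AT5G63610 was at the threshold in this comparison (adjusted p = 0.049, edgeR) and missed it with upper-quartile factors (adjusted p = 0.050), with DESeq2 (0.069) and with quantile normalization (0.052).

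Genes that act beside the cyclin-CDK core were followed in 3 lists, for which counts are given and no test of the list was made. They stand beside the shares of all genes given above, of which 11.2% rose and 11.6% fell in HRE1β-labelled OXs, and 15.3% rose and 15.5% fell in AtRH17 OXs. Of 26 DNA replication genes, 10 rose (38.5%) and 1 fell in HRE1β-labelled OXs, with a median log2 fold change of 0.72, and 8 rose (30.8%) and 1 fell in AtRH17 OXs, with a median of 0.43. None was called in HRE1α OXs, where 2 had an unadjusted p under 0.05. TSO2, the small subunit of ribonucleotide reductase, stood at 61.8 and 60.1 CPM in HRE1β-labelled OXs, 47.8 and 53.5 CPM in AtRH17 OXs and 27.6 and 33.3 CPM in HRE1α OXs, against 23.3 and 27.7 CPM in WT. RNR1, the large subunit, had 40.4 and 38.3 CPM in HRE1β-labelled OXs, 31.2 and 30.8 CPM in AtRH17 OXs and 21.7 and 23.6 CPM in HRE1α OXs, against 20.4 and 19.9 CPM in WT. PCNA1, the sliding clamp of DNA polymerases, had 13.2 and 11.96 CPM in HRE1β-labelled OXs, 15.01 and 14.5 CPM in AtRH17 OXs and 8.67 and 6.92 CPM in HRE1α OXs, against 6.01 and 5.85 CPM in WT. For all 3 genes HRE1β-labelled OXs and AtRH17 OXs lay above every HRE1α OX and WT library, with log2 fold changes against WT of 0.62 to 1.32 (adjusted p from 4.9e-10 to 5.6e-05, edgeR). The gene that fell in both groups was MCM3, a subunit of the replicative helicase. It fell by 0.61 and 0.73 on the log2 scale (adjusted p = 0.014 and 0.0029, edgeR), while its partners MCM4, MCM5 and MCM7 rose in both. The MCM3 call was lost in HRE1β-labelled OXs without their replicate 2, and in AtRH17 OXs without WT replicate 2. MCM2 and MCM6, also on the list, averaged 4.42 and 4.5 CPM in HRE1β-labelled OXs and 3.43 and 2.65 CPM in AtRH17 OXs. Their WT means were 2.43 and 1.71 CPM.

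Of 17 genes of mitosis and cytokinesis, 8 rose (47.1%, beside 11.2% of all genes) and 1 fell in HRE1β-labelled OXs (median 0.76), and 6 rose in AtRH17 OXs (35.3%, beside 15.3%, median 0.71). None was called in HRE1α OXs, where 2 had an unadjusted p under 0.05. ATK5, a spindle kinesin, had 15.3 and 14.7 CPM in HRE1β-labelled OXs and 14.0 and 14.8 CPM in AtRH17 OXs, against 8.6 and 8.44 CPM in WT. SYP111, the cytokinesis syntaxin KNOLLE, had 18.7 and 12.6 CPM in HRE1β-labelled OXs and 15.8 and 16.0 CPM in AtRH17 OXs, against 9.67 and 8.34 CPM in WT. MAD2, a spindle checkpoint protein, had 11.7 and 11.9 CPM in HRE1β-labelled OXs and 16.4 and 10.9 CPM in AtRH17 OXs, against 8.64 and 6.32 CPM in WT. The 3 genes passed in both groups, with an adjusted p from 0.000185 to 0.0101 (edgeR). MPS1, known for the spindle of meiosis, was the gene that fell (log2 fold change -0.36, adjusted p = 0.024, edgeR). Its call was lost without HRE1β-labelled replicate 2 or WT replicate 2.

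Of 17 regulators around the core, 2 rose in HRE1β-labelled OXs (11.8%, beside 11.2% of all genes) and 1 in AtRH17 OXs (5.88%, beside 15.3%), and 0 were called in HRE1α OXs (0 also at an unadjusted p under 0.05). CKS2, which docks CDKs to substrates, had 21.6 and 18.3 CPM in HRE1β-labelled OXs and 23.3 and 22.6 CPM in AtRH17 OXs, against 16.1 and 14.5 CPM in WT (adjusted p = 0.037 and 0.00098, edgeR). CDC20.1, an activator of the anaphase-promoting complex, had 5.88 and 4.34 CPM in HRE1β-labelled OXs, against 3.02 and 2.84 CPM in WT (adjusted p = 0.034, edgeR). TSO1, which represses cell division genes, had 19.4 and 15.8 CPM in HRE1β-labelled OXs, against 13.4 and 13.6 CPM in WT, and did not pass (adjusted p = 0.060). Without HRE1β-labelled replicate 1, the count of regulators that rose in that group was 0, and without either WT library it was 1. In the same group, 7 replication genes and 5 of mitosis and cytokinesis were called higher without its replicate 1. For AtRH17 OXs these counts were 4 and 2 without AtRH17 OX replicate 1, and 5 and 4 without WT replicate 2.

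**Figure D4:**
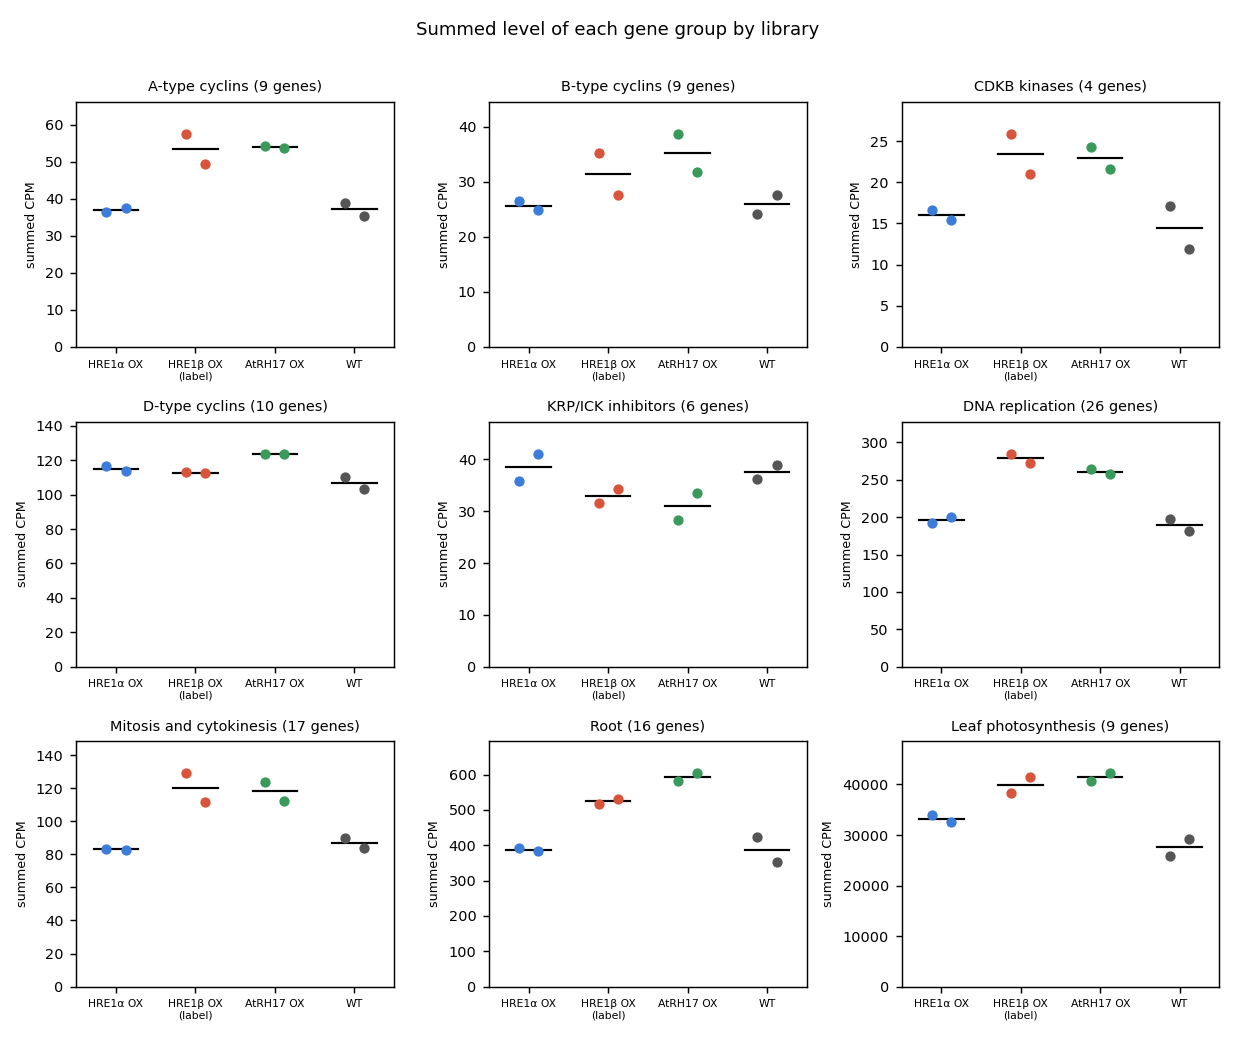
Summed CPM (vertical axes, from 0, each panel on its own scale) of 5 groups of members, the DNA replication and the mitosis and cytokinesis lists, and the root and leaf photosynthesis markers, with 1 point per library and a bar at the group mean. A-type cyclins, CDKB kinases and both lists lie higher in all 4 libraries of HRE1β OX (as labelled) and AtRH17 OX than in WT, and so do both marker groups.

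Genes that mark tissues of unequal cell division moved in the same libraries, where 22.9% of all genes were called in HRE1β-labelled OXs and 30.8% in AtRH17 OXs. Leaf photosynthesis markers rose in 9 of 9 genes in HRE1β-labelled OXs and in AtRH17 OXs and in 5 of 9 in HRE1α OXs, and summed to 1.45, 1.51 and 1.21 times their WT level. Of 16 root markers, 4 rose in HRE1β-labelled OXs (25.0%), 6 rose and 1 fell in AtRH17 OXs (43.8% called), and 0 were called in HRE1α OXs (0 at an unadjusted p under 0.05). Their sum was 517 to 530 CPM in HRE1β-labelled OXs, 583 to 603 CPM in AtRH17 OXs and 383 to 391 CPM in HRE1α OXs, against 352 to 423 CPM in WT. GL2 made up most of this sum, with 339 and 358 CPM in HRE1β-labelled OXs, 380 and 377 CPM in AtRH17 OXs and 255 and 247 CPM in HRE1α OXs, against 270 and 229 CPM in WT. The median log2 fold change of the list was 0.21, 0.46 and -0.06, in the same order of overexpressors. PLT1, PLT2 and WOX5 had at most 1.71 CPM in any library and add little to the sum. EXPA7 was lower, with 7.32 and 9.17 CPM in HRE1β-labelled OXs and 7.93 and 9.52 CPM in AtRH17 OXs, against 11.3 and 10.3 CPM in WT. SCR had 17.1 and 16.1 CPM in HRE1β-labelled OXs, against 16.2 and 14.8 CPM in WT. The sum is thus no measure of dividing root cells. Stomatal lineage markers were lower in 3 of 7 genes in AtRH17 OXs and in 1 in HRE1β-labelled OXs, with sums of 0.67 and 0.84 times WT. Of 8 tested shoot meristem and leaf primordium markers, 1 rose in AtRH17 OXs and 1 fell in HRE1β-labelled OXs, and their sums were 1.02 times WT in HRE1β-labelled OXs, 1.0 times in AtRH17 OXs and 1.19 times in HRE1α OXs. The part of tissue composition in the changes of the cyclins and CDKs was not tested.

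The rule by symbol left out 11 genes of the same families that the tables hold under other names, which were looked up after the values had been seen. Of these 11, 3 were called against WT in HRE1β-labelled OXs (27.3%, beside 22.9% of all genes tested). In AtRH17 OXs 3 were called (27.3%, beside 30.8%), so both shares were near those of all genes. In HRE1α OXs 0 were called (beside 3.36%), where 1 had an unadjusted p under 0.05. CDC2 is CDKA;1, the main CDK of the plant cell cycle. It had 30.5 and 34.2 CPM in HRE1β-labelled OXs, 30.3 and 32.8 CPM in AtRH17 OXs and 42.8 and 39.9 CPM in HRE1α OXs, against 40.0 and 44.2 CPM in WT. It was thus 1.3-fold and 1.34-fold lower in the first 2 groups (adjusted p = 0.0079 and 0.0028, edgeR). Of the CDKB kinases, CDKB1;1 and CDKB2;1 were called higher in both of these groups. ACK2, an inhibitor also named ICK7, had 15.5 and 16.8 CPM in HRE1β-labelled OXs and 19.1 and 16.7 CPM in AtRH17 OXs, against 23.2 and 22.0 CPM in WT (adjusted p = 0.0051 and 0.042, edgeR). CAK1AT, the CDK-activating kinase CDKF;1, was lower in AtRH17 OXs (log2 fold change -0.31, adjusted p = 0.038, edgeR). CYC1BAT, which is CYCB1;2, was higher in HRE1β-labelled OXs (log2 fold change 0.68, adjusted p = 0.023, edgeR). The 7 others were called in no comparison with WT, among them LGO, the SIM-type inhibitor that sets giant cell number in sepals. Other settings, left-out libraries, overlaps and similar transcript ends were examined for the members by symbol and not for these 11 genes.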

How the data were processed

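Total RNA of whole seedlings was sequenced with QuantSeq 3′ libraries, 2 for each of HRE1α OX, HRE1β OX, AtRH17 OX and WT. The authors aligned the 75-base reads with Bowtie2 to TAIR10, counted unique and multiple alignments per gene with Bedtools and deposited raw counts, 1 table per library, without normalization. The versions and the use of strand are not given in the sources used here. A read can therefore count for 2 overlapping or near-identical genes.

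Groups and replicate numbers were taken from the labels. All 8 libraries were fitted together with edgeR 4.0.16 in R 4.3.3 (filterByExpr, TMM, estimateDisp and glmQLFit with robust = TRUE), in 6 comparisons, with Benjamini-Hochberg adjustment over the 22602 genes tested. The SE of a log2 fold change was derived from its size and the F statistic (size over root F). With 2 libraries against 2, an exact permutation test cannot go below 0.33 and was not used. The test was tried on simulated data first. In each group, replicates differed by more than sampling noise, with a chi-square p under 0.05 for 31.5% to 43.6% of genes, so none was counted as a duplicate.

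Of the gene names, 32577 were matched to a single RefSeq locus of TAIR10.1 by symbol or synonym, and 451 were not. Of the listed names, TCX5, CDC6A, CDC6B, TPX2 and LEA76 were not matched. One further promoter sequence is not reported here. Similar transcript ends were sought with BLAST 2.17.0 (at least 50 bases and 90% identity). Counts cover 3′ ends, and intervals for counting error were not computed beside the replicate spread.

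Named are each member called in any comparison, the highest member of each class and members with 3 counts or fewer in every library. So are the 3 genes of each pathway list with the lowest adjusted p. Of the members with counts that may be shared, only some are named. MCM3 with its partners, MPS1, ICK6 and the genes under other names were chosen after their values were seen. The same holds for the root markers named and the uncalled members named for completeness. The members and lists were chosen with earlier results of these data known. Pericycle and lateral root markers (0 of 3 tested called against WT) and trichome markers (1 of 4 higher in the libraries labelled HRE1β OX and in AtRH17 OXs) were also read.

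The alternatives were upper-quartile factors, DESeq2 1.42.0, quantile-normalized log2(CPM + 1) with limma 3.58.1, no filter, at least 10 counts in every library, only the 2 groups compared, a replicate block, and each of the 8 libraries left out. Leaving out libraries for the pathway lists and roles was added after seeing the data.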

Additional observations from a re-analysis of the deposited data

Results flagged for a closer look

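A direct test between overexpressors (edgeR's quasi-likelihood test, adjusted over all genes tested, 2 libraries a group) found a difference for the following members. Each value is a log2 difference, the first-named group minus the second.

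Between the libraries labelled HRE1β OX and HRE1α OXs, CYCA1;1 differed by 1.07 (adjusted p = 0.00085), CYCB1;4 by 1.07 (0.025), CDKB1;1 by 1.03 (0.017), CYCB2;4 by 0.88 (0.018), CYCA3;2 by 0.62 (0.0015) and CYCB1;5 by -0.94 (0.033). Leaving out replicate 1 labelled HRE1β OX left 1 of these 6, CYCA1;1.

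Between AtRH17 OXs and HRE1α OXs, CYCB1;4 differed by 1.17 (adjusted p = 0.0099), CYCA1;1 by 1.13 (0.00027), CYCB2;4 by 1.08 (0.0023), CYCB2;2 by 1.03 (0.014), CDKB1;1 by 0.95 (0.02), CYCA3;2 by 0.79 (4.7e-05) and CYCD3;3 by 0.62 (0.00051), while ICK1 differed by -1.08 (2.3e-05) and CDKE;1 by -0.46 (0.006). CYCA1;1, CYCA3;2, CYCD3;3 and ICK1 were called under every alternative and every library left out, and without HRE1α OX replicate 1 the count was 5.

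Between AtRH17 OXs and the libraries labelled HRE1β OX, CYCD3;3 differed by 0.54 (adjusted p = 0.0042), ICK1 by -0.64 (0.013), CYCD3;1 by -0.63 (0.021) and CDKE;1 by -0.36 (0.049). Each of these 4 lost its call with at least 1 library left out.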

How the results depend on the processing

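No alternative reversed a call. Of 49 calls of a member in a comparison, 14 were kept under all 7 alternatives and with each of the 8 libraries left out, and 35 were lost under at least 1. The number of members called with 1 library left out ranged from 0 to 2 for HRE1α OXs against WT, 3 to 15 for the libraries labelled HRE1β OX against WT, 9 to 14 for AtRH17 OXs against WT, 1 to 9 for the libraries labelled HRE1β OX against HRE1α OXs, 5 to 10 for AtRH17 OXs against HRE1α OXs and 0 to 5 for AtRH17 OXs against the libraries labelled HRE1β OX. Leaving out replicate 1 labelled HRE1β OX lost 21 of the 49 calls, the most of any library, and DESeq2 lost 6, the most of any tool or scaling. The cause was not tested. The median log2 fold change over all genes moved most in AtRH17 OXs against WT, where it was 0.0434 with upper-quartile factors and -0.0082 with TMM factors.

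Libraries that share only a replicate number did not deviate together (Pearson's r across 22602 genes, which are not independent replicates, between -0.0126 and 0.0392 for the 6 pairs of groups). With a replicate block, 2, 15, 15, 8, 9 and 4 members were called in the 6 comparisons, in the order above, and 48 of the 49 calls were kept, the exception being CYCB2;2 in AtRH17 OXs against WT.

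Members near or under 1 CPM were measured least closely. The standard errors over the 6 comparisons were 0.72 to 0.79 on the log2 scale for DEL2 and 0.52 to 0.56 for CYCD4;2, so a 2-fold change is less than 2 standard errors.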
